A study of Bos taurus and Ovis aries and Capra hircus with 18 samples.

Results

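SNAP25, STX1A, VAMP2, SYT1, SYP, SYN1, CPLX1 and SV2A, which code for proteins of the synaptic vesicle and of the machinery that fuses it with the nerve terminal, were followed in 3 ruminants, in brain and in muscle. The 8 genes were listed by name. Each was found in cattle by its position and paired with a sheep and a goat gene by exon structure and gene order, so all 8 were among the 14746 genes matched in the 3 species. The study profiled poly(A) RNA of adult cattle brain, cattle muscle, sheep brain, sheep muscle, goat brain and goat muscle, each with 3 libraries lettered A, B and C, for 18 libraries in 6 groups. No treatment or genotype is labelled, and the sources used here do not give breed, sex, age in years, the region of the brain or which muscle was taken. The labels do not say that the letters stand for separate animals, so p-values measure only the spread between these samples, which may be technical. The labels' protocol names frozen brain as the source of RNA in every library, the muscle ones included. The files separated the tissues as labelled: 9 skeletal muscle markers summed to 6.40 to 30.9 CPM per kilobase in the brain libraries and 61806 to 147990 in the muscle libraries, and 12 neuronal markers summed to 1792 to 4414 in brain and 18.1 to 47.2 in muscle.

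Transmitter release depends on a bundle of SNARE proteins that draws vesicle and plasma membrane together. VAMP2 sits on the vesicle, STX1A and SNAP25 sit on the plasma membrane, and all 3 proteins of the bundle are cut by clostridial neurotoxins. SYT1 is the calcium sensor that triggers fusion, CPLX1 clamps and primes the partly formed bundle, SYP and SV2A are abundant proteins of the vesicle membrane, and SYN1 ties vesicles into the reserve pool. In brain these genes are read as neuronal and their proteins as marks of the presynapse.

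In cattle, SNAP25 lay on chromosome 13 (3478001 to 3561819), STX1A on chromosome 25 (33543190 to 33561036) and VAMP2 on chromosome 19 (27795436 to 27799326), on the ARS-UCD1.2 build of the count files. SYT1 lay on chromosome 5 (8650286 to 9050216) and CPLX1 on chromosome 6 (117489824 to 117530963). SYP (87230205 to 87242062) and SYN1 (85929321 to 85992826) shared chromosome X, and SV2A was on chromosome 3 (20696426 to 20710108). SNAP25, SYT1, SYP, SYN1 and SV2A were paired by runs of shared exon lengths. STX1A, VAMP2 and CPLX1 were paired by shared exon lengths together with the genes beside them. For CPLX1 only 1 exon length was shared between cattle and sheep and 1 between cattle and goat, and no run of 2 exons was shared with either, so its pairing rested mostly on gene order. In sheep both cattle neighbours flanked CPLX1, and in goat only PCGF3 did, the partner of TMEM175 lying elsewhere.

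The gene models differed in how much of each transcript they held. VAMP2 had 2210 exonic bases in cattle, 585 in sheep and 359 in goat. CPLX1 had 3180, 405 and 453 bases in the same species. The other members ranged from 2211 to 5743 bases in cattle, from 942 to 2588 in sheep and from 2444 to 4480 in goat. Levels are therefore given as CPM (counts scaled to library size by trimmed means, TMM) divided by the exonic length in kilobases, and every comparison between genes or species is per length unless it says otherwise.

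One brain library, sheep brain C, was unlike its partners. Over the matched genes its Spearman correlation was 0.771 with sheep brain A and 0.775 with sheep brain B, while A and B correlated at 0.985 and the other brain pairs at 0.952 to 0.992. Results that use sheep brain are given with and without it. In muscle, goat muscle C correlated at 0.907 and 0.893 with goat muscle A and B, and the other pairs at 0.965 to 0.983. Library totals ran from 20730803 to 58514630 counts, and the smallest count behind any brain value of the 8 genes was 731, for SYT1 in sheep brain C. In the other brain libraries the smallest was 4356, for CPLX1 in goat brain B.

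SNAP25, the plasma membrane SNARE that gives the bundle a pair of its helices, was the highest of the 8 genes in every cattle brain library. Its level was 1076, 921 and 824 CPM per kilobase in cattle brain A, B and C. In sheep brain it was 1128 and 946.6 in A and B and 314.9 in C. In goat brain A, B and C it was 766.8, 1374 and 563.8. The lowest of the 9 was sheep brain C, and goat brain spanned more than cattle brain.

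STX1A, the syntaxin that anchors the bundle in the plasma membrane, was near the bottom of the order. Its level was 118, 139 and 91.5 CPM per kilobase in cattle brain A, B and C. It was 121, 123 and 210.1 in sheep brain A, B and C, and 70.4, 75.3 and 95.2 in goat brain A, B and C. Sheep brain C was the highest library of the 9 for STX1A, where it was the lowest for SNAP25.

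VAMP2, the vesicle SNARE, was second to SNAP25 in all 3 cattle brain libraries, at 601.2, 590.8 and 514.2 CPM per kilobase in A, B and C. It was 635.5, 744.2 and 379 in sheep brain A, B and C. It was 855.6, 728 and 1380.2 in goat brain A, B and C. Per length, VAMP2 passed SNAP25 in sheep brain C and in goat brain A and C, so the order of this pair was not fixed across libraries. In CPM without length VAMP2 was below SNAP25 there, at 221.8 against 350.2 in sheep brain C. In goat brain A and C VAMP2 was then 307.2 and 495.5, against 2212 and 1626 for SNAP25.

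SYT1, the calcium sensor, was 227.8, 217.4 and 288.2 CPM per kilobase in cattle brain A, B and C. It was 254.8 and 216.1 in sheep brain A and B and 13.01 in sheep brain C. It was 186.3, 245.1 and 345.5 in goat brain A, B and C. The 8 libraries other than sheep brain C spanned 1.85-fold, and all 9 spanned 26.6-fold, the widest range of any member. CPLX1, the complexin, was 163, 140 and 60.4 in cattle brain A, B and C, 372.3, 329.9 and 292.6 in sheep brain A, B and C, and 321.5, 316.1 and 279.4 in goat brain A, B and C. Its widest contrast was not in sheep brain C but between cattle and the other species, and cattle brain C held less than either other cattle library.

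SYP, a tetraspanning protein of the vesicle membrane, was 296.1, 281.9 and 314.6 CPM per kilobase in cattle brain A, B and C. It was 283.5, 201.9 and 82.3 in sheep brain and 179.6, 241.1 and 331.9 in goat brain, again in the order A, B, C. SV2A, the vesicle glycoprotein to which levetiracetam binds, was 144, 124 and 114 in cattle brain, 94.7, 73.3 and 25.4 in sheep brain, and 68.2, 91.8 and 122.2 in goat brain, in that order too. Both vesicle membrane genes had their lowest value of the 9 in sheep brain C. SYN1, the synapsin of the reserve pool, was 197.1, 201.5 and 160 in cattle brain A, B and C. It was 159.4, 135.3 and 408.9 in sheep brain A, B and C, and 102.7, 120.3 and 160.5 in goat brain A, B and C. For SYN1 sheep brain C was the highest library of the 9.

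**Figure D1:**
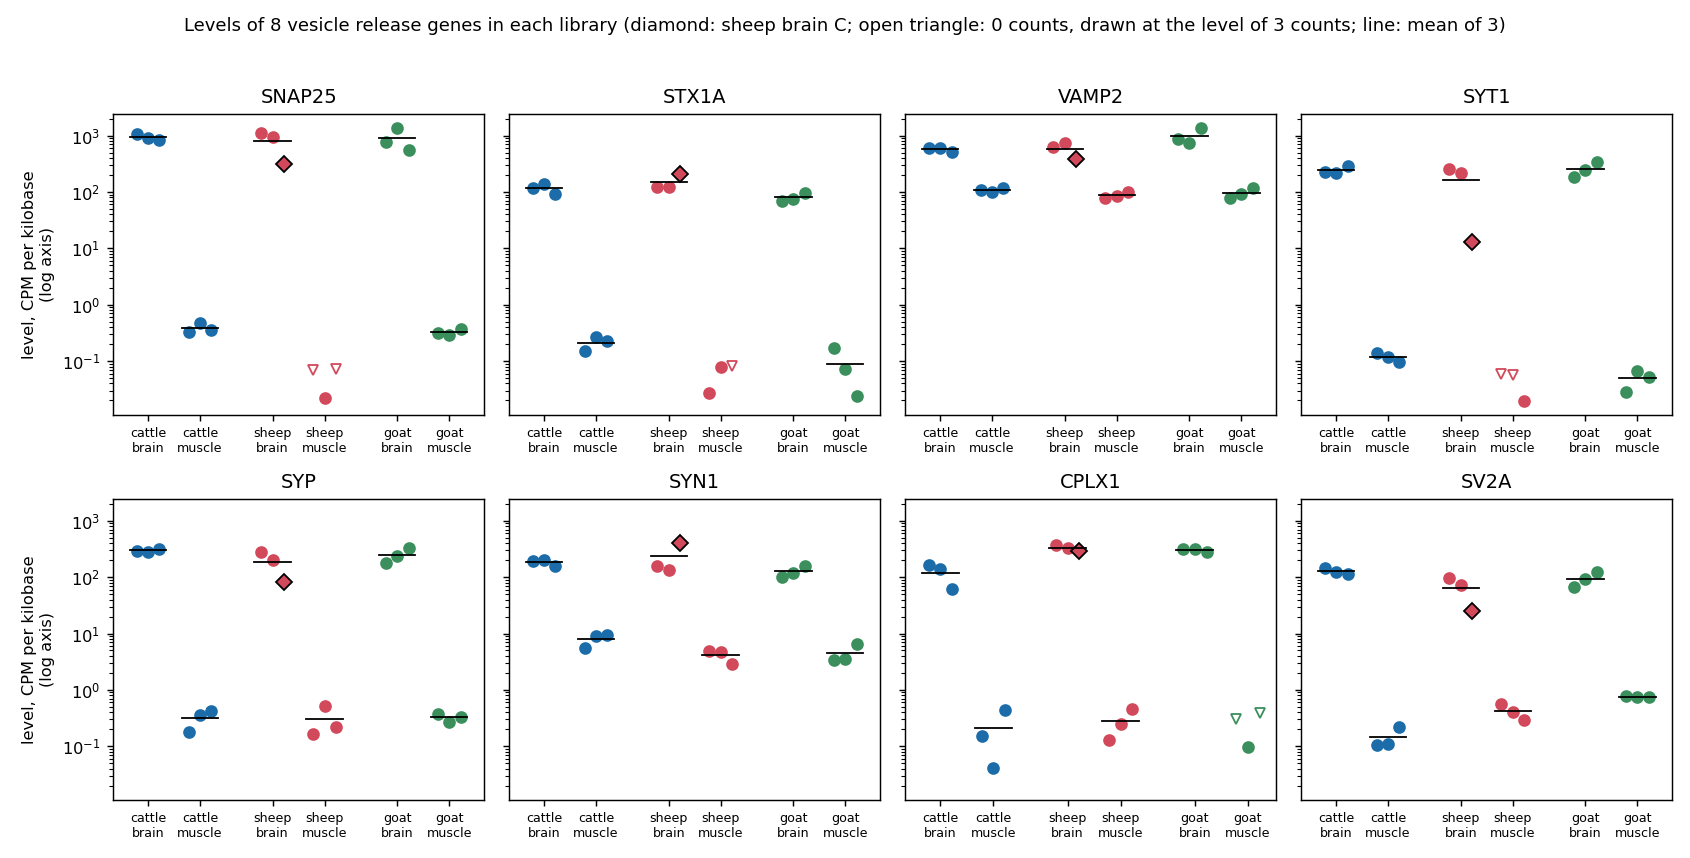
Level of each gene (CPM per kilobase, log axis) in every library, brain left of muscle for each species, with a line at the mean of 3 libraries where none had 0 counts and an open triangle, at the level of 3 counts, for a library with 0. VAMP2 and SYN1 kept a visible level in muscle, and sheep brain C, drawn as a diamond, lay below its partners for SNAP25, VAMP2, SYT1, SYP, CPLX1 and SV2A and above them for STX1A and SYN1.

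By the group means, cattle brain ran from SNAP25 (940.3 ± 127) through VAMP2 (568.7 ± 47.5), SYP (297.5 ± 16.4), SYT1 (244.5 ± 38.2) and SYN1 (186.2 ± 22.8) to SV2A (127.6 ± 15.1), CPLX1 (121 ± 53.6) and STX1A (116.1 ± 23.7; CPM per kilobase, SD, n = 3). Neighbours in this order overlapped between SYP and SYT1, SV2A and CPLX1, and CPLX1 and STX1A. In goat brain VAMP2 (987.9 ± 346) and SNAP25 (901.4 ± 421) led and overlapped, followed by CPLX1 (305.7 ± 22.9), SYT1 (259 ± 80.5) and SYP (250.8 ± 76.6), and STX1A was last (80.3 ± 13.2; SD, n = 3 each). In sheep brain SNAP25 (796.5 ± 427), VAMP2 (586.3 ± 187) and CPLX1 (331.6 ± 39.9) led and SV2A was last (64.5 ± 35.5; SD, n = 3 each). Without sheep brain C the sheep means of SNAP25 and VAMP2 were 1037 and 689.9, and STX1A stood at place 7 with 122, against place 8 for SV2A. SNAP25 and VAMP2 held the top places in every brain library except sheep brain C, where SYN1 was first. These orders depended on gene models that hold 359 exonic bases of VAMP2 in goat and 405 and 453 of CPLX1 in sheep and goat. In mean CPM without length goat VAMP2 (354.7) lay below SNAP25 (2601), SYT1 (852.2), SYP (666.4) and SV2A (421.5). CPLX1 was then last in sheep (134.3) and goat (138.5), and STX1A was last in cattle (309.2).

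As shares of the summed level of the 8 genes, SNAP25 took 38.1%, 35.2% and 34.8% in cattle brain A, B and C. It took 37.0% and 34.2% in sheep brain A and B, 18.2% in sheep brain C, and 30.1%, 43.0% and 17.2% in goat brain A, B and C. Goat brain C thus had a SNAP25 share close to that of sheep brain C, but its SYT1 share was 10.5% and its VAMP2 share 42.1%. SYT1 took 0.753% of the sum in sheep brain C, the lowest share of SYT1 in the 9 libraries, and SYN1 took 23.7%, its highest share. The shares depend on the gene models as the order does.

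**Figure D2:**
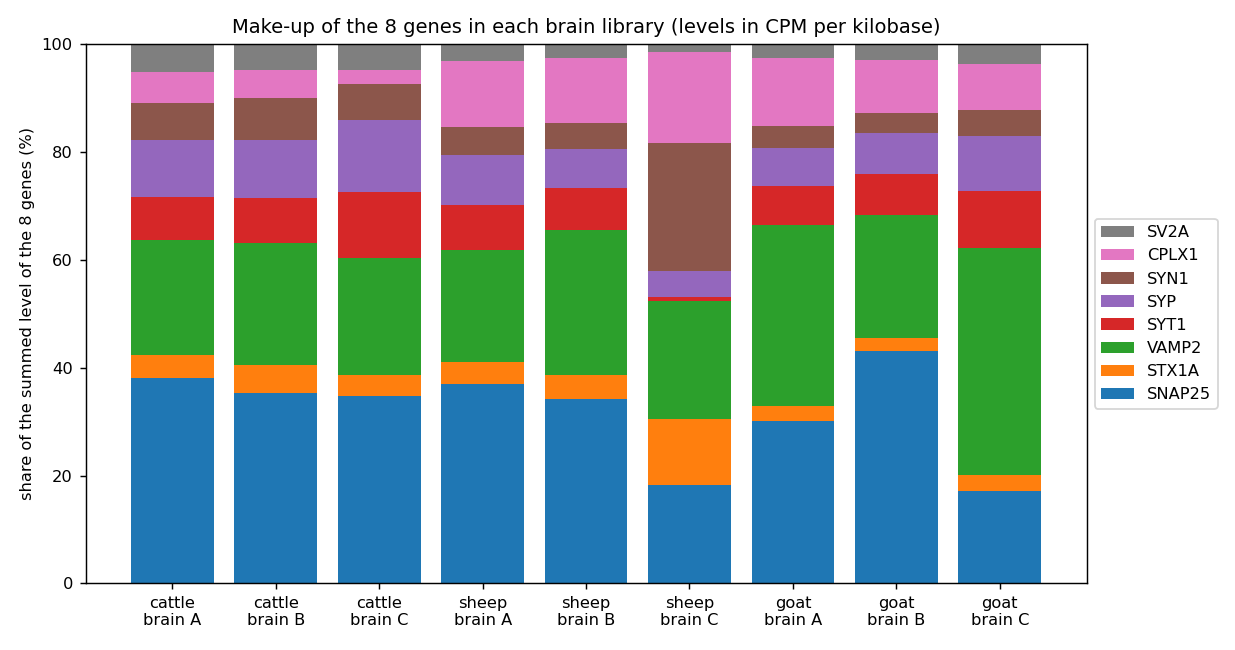
Share of each gene in the summed level of the 8 genes (percent, levels in CPM per kilobase), 1 bar per brain library. The cattle bars are alike, sheep brain C has a wide SYN1 band (23.7%) and almost no SYT1 (0.753%), and goat brain C has a wide VAMP2 band (42.1%). The VAMP2 band in goat rests on a gene model of 359 exonic bases.

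Set against the mean of sheep brain A and B, sheep brain C was lower by at least 2-fold for 4 of the 8 members and higher by at least 2-fold for 1. Of all 13651 genes compared, 28.9% were lower and 23.7% higher by that much, and the members' counts are read against those shares. With 1 library on one side there is no test. SYT1 was the member farthest from its partners, with 731 counts in C, against 15282 and 15010 in A and B, a log2 difference of -4.13. In that library 0.271% of the genes had a lower difference than SYT1. SNAP25 (-1.71), SV2A (-1.71) and SYP (-1.53) came next on the same scale, and VAMP2 (-0.86) and CPLX1 (-0.26) were lower by less than 2-fold. SYN1 was higher by 1.48 on the log2 scale, with 44459 counts in C, against 18493 and 18178 in A and B. STX1A was higher by 0.79, with 8528 counts in C, against 5223 and 6160. The plasma membrane SNAREs STX1A and SNAP25 thus lay on opposite sides of 0, as did SYN1 and SYP. On library totals alone the median gene of sheep brain C lay at -0.38, against -0.03 with TMM; all 8 signs were the same, and VAMP2 then passed 2-fold (-1.22).

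The rest of the release machinery was also split in sheep brain C. Over all genes 28.9% were lower and 23.7% higher there by at least 2-fold, and the counts below are read against those shares. Of 12 active zone and priming genes 8 were lower by at least 2-fold and 0 higher, with a median log2 difference of -1.84, against -0.03 over all genes. UNC13A, which primes vesicles, was at -3.52 and RIMS2, a scaffold of the active zone, at -3.07. Of 14 vesicle membrane and coat genes 10 were lower and 1 higher (median -1.82), and of 7 neuronal SNARE relatives 6 were lower and 1 higher (median -2.16), the higher one being NAPA (1.83), the ubiquitous partner of NSF. Housekeeping SNAREs had 7 of 21 lower and 3 higher (median -0.43), the lower count being close to the share of all genes. Synaptotagmins and DOC2 genes had 6 of 15 lower and 4 higher (median -0.58), and vesicle recycling genes 9 of 19 lower and 5 higher (median -0.95). General neuronal markers did not move one way: 2 of 12 were lower and 3 higher (median -0.17), with ELAVL4 at -2.99 and SNCB at 1.99. Their sum was 4414 CPM per kilobase in C, against 2591 and 2017 in A and B. Of the skeletal muscle markers 3 of the 5 that could be compared were higher by at least 2-fold, and the 9 summed to 30.9 CPM per kilobase in C, against 17.2 and 8.90 in A and B. That sum was not particular to sheep brain C, as cattle brain B and C had 28.4 and 25.8. Oligodendrocyte markers had 5 of 9 lower and 0 higher. Astrocyte and inhibitory neuron markers each had 3 of 7 lower and 1 higher, and excitatory neuron markers 2 of 5 lower and 1 higher. Endothelial markers had 2 of 6 lower and 0 higher, and of 3 microglial markers 0 were lower and 0 higher. Mitochondrially encoded genes took 2.67% of the counts in C, against 4.95% and 4.48% in A and B. The part of these shifts in the members' values was not tested.

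**Figure D3:**
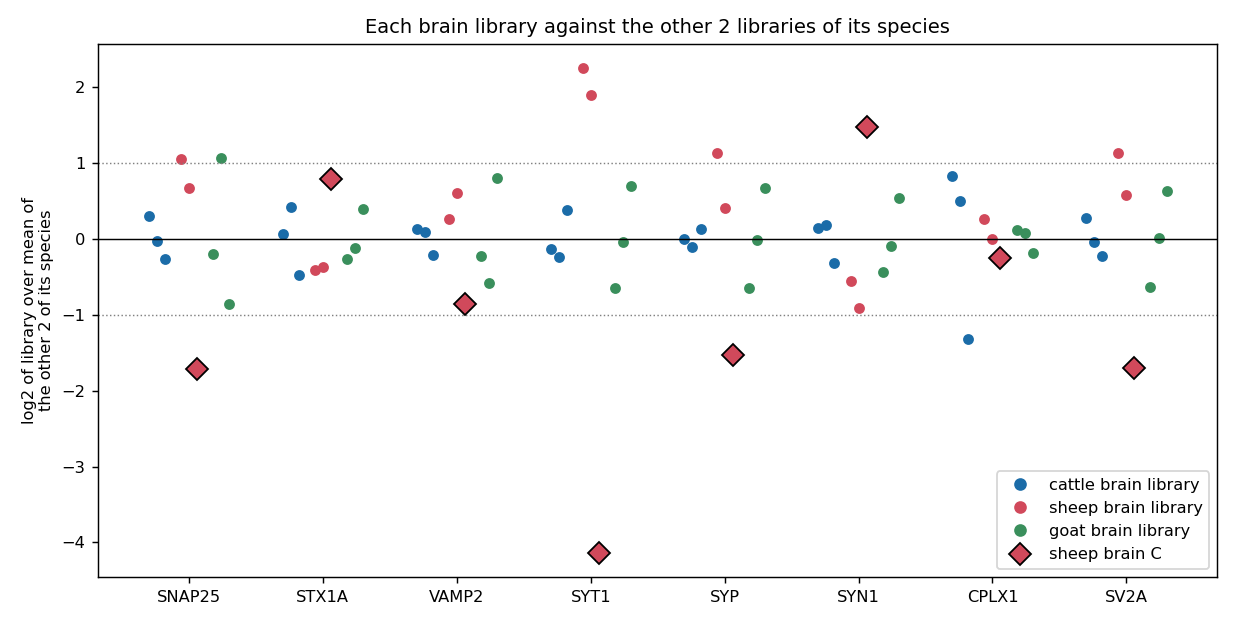
Log2 of each brain library over the mean of the other 2 libraries of its species, for the 8 genes; dotted lines mark 2-fold. Sheep brain C (diamonds) lies at -4.13 for SYT1 and at 1.48 for SYN1, while cattle brain C is the library farthest from its partners for CPLX1.

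In muscle the 8 genes fell into those with a clear level and those with a trace. All 8 were called higher in brain than in muscle in each species by edgeR's quasi-likelihood test with Benjamini-Hochberg adjustment (adjusted p below 0.05 and a difference of at least 2-fold). No muscle library reached the lowest brain library for any member, but the share of all genes without such overlap was not counted. Of all genes tested, 34.3% were called higher in brain in cattle, 28.3% in sheep and 31.9% in goat, and 24.6%, 19.3% and 22.5% lower. The adjusted p of the members ran from 5.27e-08 to 9.48e-06 in cattle, from 6.1e-05 to 0.000996 in sheep and from 6.19e-07 to 2.53e-05 in goat (edgeR, Benjamini-Hochberg). The median log2 difference over the 8 was 9.54 in cattle, 9.69 in sheep and 9.75 in goat, against 0.12, 0.16 and 0.16 over all genes tested. Without sheep brain C all 8 were still called in sheep. In bulk tissue, fewer cells of a type and less RNA per cell cannot be told apart.

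VAMP2 kept the most in muscle. In addition to its place at the synapse, VAMP2 is a SNARE of the insulin-driven vesicles that carry the glucose transporter to the surface of muscle and fat cells. Its muscle level was 107.8, 101 and 118.3 CPM per kilobase in cattle A, B and C, 77.7, 86.4 and 99.7 in sheep, and 79.3, 93.7 and 118.1 in goat. Muscle thus held 19.2% of the brain mean in cattle, 14.997% in sheep (12.7% without sheep brain C) and 9.82% in goat. The log2 difference of brain over muscle was 2.44 ± 0.18 in cattle, 2.71 ± 0.35 in sheep and 3.45 ± 0.32 in goat (± SE).

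SYN1 came second in muscle. It had 444, 910 and 851 counts in cattle muscle A, B and C, 479, 482 and 283 in sheep muscle, and 185, 199 and 280 in goat muscle. Muscle held 4.32% of the brain mean in cattle, 1.75% in sheep (2.79% without sheep brain C) and 3.55% in goat. In cattle a gene on the opposite strand shares 574 exonic bases with SYN1 and had more counts in muscle than in brain, with 2958, 2413 and 1790 counts in brain A, B and C and 6335, 9867 and 9589 in muscle. Whether reads were counted by strand is not stated, so reads of the pair cannot be told apart there. The sheep and goat models of SYN1 shared 0 exonic bases with another gene, and SYN1 was called higher in brain there too.

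SNAP25 and SYT1 were near 0 in muscle. SNAP25 had 18, 33 and 22 counts in cattle muscle A, B and C and 20, 19 and 18 in goat muscle, but 0, 1 and 0 in sheep muscle. Muscle held 0.0409% of the brain mean in cattle and 0.0359% in goat. In sheep the pooled counts gave a brain level 105576-fold that of muscle, with an exact 95% interval of 18948 to 4170050 that covers counting error only. SYT1 followed the same order, with 57 counts over the cattle muscle libraries, 10 over those of goat and 1 over those of sheep. Its sheep brain level was 26078-fold the muscle level, with an interval of 4680.2 to 1030070.

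STX1A, CPLX1, SYP and SV2A were also at trace level. STX1A had 49 counts over the 3 cattle muscle libraries, 4 over those of sheep and 14 over those of goat, and CPLX1 had 56, 13 and 1 in the same species. The CPLX1 counts of cattle muscle were uneven, with 12, 4 and 40 in A, B and C. SYP had nearly the same mean in each species, at 0.317 ± 0.121 CPM per kilobase in cattle muscle, 0.305 ± 0.194 in sheep and 0.324 ± 0.0567 in goat (SD, n = 3 each), which is 0.106%, 0.161% and 0.129% of brain. SV2A was lowest in cattle muscle (0.103, 0.108 and 0.218 in A, B and C), higher in sheep (0.557, 0.400 and 0.298) and highest in goat (0.786, 0.738 and 0.753). Its muscle share of the brain mean was 0.112% in cattle, 0.649% in sheep (0.498% without sheep brain C) and 0.807% in goat. Markers of Schwann cells, the glia of the nerves that run through muscle, summed to 3.66 to 48.8 CPM per kilobase in the muscle libraries, and the part of nerve in the traces was not tested.

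Between the brains of the 3 species, 7 of the 8 genes were not called and CPLX1 was. The brain libraries were not alike in make-up. Oligodendrocyte markers summed to 906 to 1342.5 CPM per kilobase in cattle brain and 1544 to 1943 in sheep brain. In goat brain A, B and C they summed to 30255.5, 4989 and 5253. Goat brain A also had the lowest neuronal marker sum of the brain libraries (1792). The part of this in the species differences was not tested. CPLX1 was lower in cattle brain than in sheep brain by 1.47 ± 0.36 on the log2 scale (-1.47, edgeR, adjusted p = 0.0182) and lower than in goat brain (-1.31 ± 0.35, adjusted p = 0.0276). The 3 cattle libraries lay between 60.4 and 163 CPM per kilobase, below the 3 of sheep at 292.6 to 372.3 and the 3 of goat at 279.4 to 321.5. Of all 12723 genes tested, 13.3% were called lower in cattle than in sheep and 6.21% higher, 19.5% in all. For cattle and goat these shares were 10.4%, 9.17% and 19.6%. The count of 1 member in 8 is close to those shares. For sheep and goat, 0 of 8 members were called (adjusted p from 0.0663 to 0.882, edgeR), against 9.6% of all genes higher in sheep, 3.9% lower and 13.5% in all. At an unadjusted p under 0.05 the fit gave 1 member, STX1A (higher in sheep by 0.95 ± 0.30 on the log2 scale), and DESeq2 called 0.

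The CPLX1 difference depended on the gene models. The cattle model is 7.85 times as long as the sheep model and 7.02 times as long as the goat model. Without the division by length the sign turned, and CPLX1 was called higher in cattle brain, by 1.11 over sheep (adjusted p = 0.046, edgeR) and by 1.21 over goat (adjusted p = 0.045, edgeR). In CPM without length, CPLX1 was 517, 443.7 and 192.1 in cattle brain A, B and C, against 150.8, 133.6 and 118.5 in sheep brain and 145.6, 143.2 and 126.6 in goat brain. Leaving out cattle brain B ended the call against sheep (adjusted p = 0.0549, edgeR), and leaving out cattle brain B or C or any 1 goat brain library ended the call against goat (adjusted p from 0.0498 to 0.0923, edgeR; -0.98, under 2-fold, without cattle brain C). Without sheep brain C the differences were -1.56 and -1.31 and both were called.

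VAMP2, whose cattle model is 3.78 times as long as that of sheep and 6.16 times as long as that of goat, was not called per length (-0.06 ± 0.34 against sheep and -0.77 ± 0.34 against goat). Without length it was called higher in cattle brain, by 1.47 and 1.55. SYP was also called without length, higher in cattle than in sheep by 1.73 (adjusted p = 0.0192, edgeR) and lower in sheep than in goat (-1.77, adjusted p = 0.0319, edgeR). SYN1, whose cattle model is 1.23 times as long as that of sheep and 1.29 times as long as that of goat, gave similar values both ways. It differed by -0.34 per length and -0.45 without between cattle and sheep, and by 0.57 and 0.64 between cattle and goat. In the fit without length the scaling was also computed anew. The differences of the other members per length ran from -0.39 to 0.97 between cattle and sheep and from -0.06 to 0.56 between cattle and goat, with standard errors of 0.30 to 0.77. A missed call at such errors does not show that the levels were alike. Without sheep brain C the cattle and sheep difference was 0.03 for SYT1, -0.16 for SNAP25 and 0.32 for SYN1, with all 9 libraries 0.58, 0.22 and -0.34, and none was called.

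**Figure D4:**
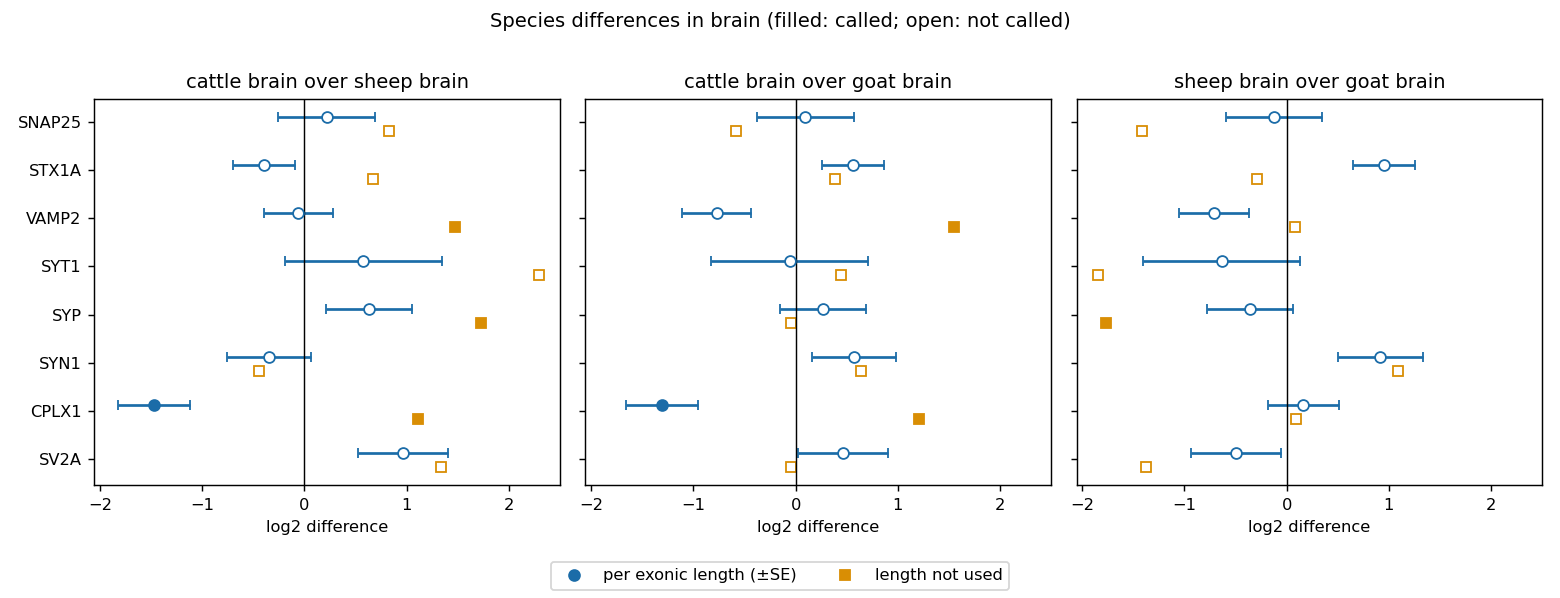
Log2 difference between species in brain for the 8 genes, with exonic length in the fit (circles, ± SE) and without it (squares); filled symbols are called. CPLX1 is at -1.47 and -1.31 in cattle over sheep and goat per length, and on the other side of 0 (1.11 and 1.21) when length is not used.

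In muscle 7 members were tested between species, CPLX1 being too low. Between cattle and sheep 5 of 7 members were called, 4 higher and 1 lower in cattle, against 33.7% of all 11737 genes (15.7% higher and 17.9% lower). SNAP25 was higher in cattle, with 73 counts over the cattle libraries and 1 over the sheep libraries, a ratio per length of 50.6 (exact 95% interval from 8.79 to 2024, counting error only). SYT1 was also higher (57 counts and 1, ratio 18.3, interval from 3.15 to 734.8). STX1A (log2 difference 2.61 ± 0.84, adjusted p = 0.0271) and SYN1 (1.06 ± 0.30, adjusted p = 0.0155) were higher and SV2A was lower (-1.45 ± 0.40, adjusted p = 0.0127; edgeR). The calls of STX1A, SYN1 and SV2A were each lost in at least 1 fit that left out a single library. STX1A lost its call without cattle muscle B or C or sheep muscle A or C, SYN1 without cattle muscle B or C or sheep muscle C, and SV2A without sheep muscle A. The SYN1 difference was also under 2-fold without length (0.86), and part of the cattle SYN1 model is the 574 bases shared with the opposite-strand gene. The part of that gene in the difference was not tested.

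Between cattle and goat muscle only SV2A was called, lower in cattle (-2.41 ± 0.40, adjusted p = 0.000637, edgeR), where 38.5% of all genes were called (16.5% higher and 21.9% lower). The count of 1 member in 7 is under that share. SYN1 was also called higher in cattle without goat muscle C (1.24, adjusted p = 0.00313) or without cattle muscle A (1.08, adjusted p = 0.0236; edgeR). Between sheep and goat muscle SNAP25 (1 count in sheep and 57 in goat, ratio 0.0241, interval from 0.0006 to 0.14) and SYT1 (1 count and 10, ratio 0.13, interval from 0.003 to 0.915) were called lower in sheep, against 27.8% of all genes (11.6% higher and 16.2% lower). The count of 2 members in 7 is close to that share. The SYT1 call was lost in DESeq2, with RLE scaling, on library totals, with no filter on low counts, with the replicate block (adjusted p from 0.0523 to 0.095 over these) and without any 1 muscle library other than sheep muscle C. VAMP2 and SYP were not called in any pair (VAMP2 from -0.23 ± 0.18 to 0.40 ± 0.18, SYP from -0.18 ± 0.51 to 0.14 ± 0.50). As in brain, VAMP2 depended on the gene models: without length it was called higher in cattle muscle, by 1.83 over sheep (adjusted p = 4.41e-05) and by 2.55 over goat (adjusted p = 7.04e-06; edgeR).

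The gap between the tissues itself was tested as an interaction of tissue and species. SV2A had a wider gap in cattle than in sheep (log2 difference of the differences 2.52 ± 0.59, adjusted p = 0.00748) and than in goat (2.84 ± 0.59, adjusted p = 0.00449; edgeR). SNAP25 had a narrower gap in cattle than in sheep (-5.12 ± 1.04, adjusted p = 0.00315) and a wider one in sheep than in goat (4.92 ± 1.06, adjusted p = 0.0116; edgeR). STX1A had a narrower gap in cattle than in sheep (-2.92 ± 0.78, adjusted p = 0.0149, edgeR). The fitted size for SNAP25 rests on 1 count in sheep muscle and is no bound. Of all 13131 genes 19.2% were called for cattle and sheep (8.95% higher and 10.3% lower), beside 3 of 8 members. For cattle and goat 13.1% were called (7.44% and 5.7%), beside 1 member, and for sheep and goat 7.51% (4.81% and 2.7%), beside 1 member. Without sheep brain C those 5 calls remained, and SYT1 joined them between cattle and sheep (-3.95, adjusted p = 0.0033, edgeR).

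The other genes of the release machinery were read from 7 lists of 111 symbols, of which 95 were named in cattle. Leaving out the 8 members, 60 of 92 tested genes were called higher in brain and 8 higher in muscle in cattle. The counts were 51 and 7 of 91 in sheep, and 60 and 7 of 90 in goat. Over all genes 34.3%, 28.3% and 31.9% were called higher in brain and 24.6%, 19.3% and 22.5% higher in muscle in the 3 species. The lists split by role. Active zone and priming genes were called higher in brain in 11 of 12 cases in each species, with medians of 8.81 in cattle, 6.33 in sheep and 9.29 in goat. PCLO, the piccolo scaffold, had 13712 counts in cattle brain and 4 in muscle, 7094 and 1 in sheep, and 11695 and 1 in goat. CADPS, which primes dense-core vesicles, had 21774 and 7, 17658 and 2, and 13751 and 3 in the same order.

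The neuronal relatives of the SNAREs were higher in brain in 5, 4 and 6 of 7 tested genes in cattle, sheep and goat. Of the synaptotagmins and DOC2 genes 15 of 15, 13 of 16 and 13 of 15 were called higher in brain and 0 in muscle. SYT13 and SYT16, relatives of SYT1, had 39862 and 586 counts in cattle brain, against 6 and 0 in cattle muscle. SYT16 had 0 counts in muscle in every species, so its brain level was at least 119-fold higher in cattle, 218-fold in sheep and 253.8-fold in goat, taking 3 counts over the muscle group as the floor. The median of that list was 7.66, 6.61 and 7.32 as fitted and 6.54, 5.83 and 5.96 with such genes at their floor. CPLX3, the only other complexin tested, had 580, 592 and 1686 counts in brain and 1 in the muscle of each species.

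Among vesicle membrane and coat genes 12, 9 and 10 of 15 were higher in brain and 3 in each species were higher in muscle. SYNPR, a close relative of SYP, was 52.8 ± 10.1, 57.3 ± 32.5 and 84.1 ± 38.7 CPM per kilobase in the brain of cattle, sheep and goat (SD, n = 3), with 27, 0 and 1 counts in muscle. SV2C, a relative of SV2A, had 1849, 1209 and 817 counts in brain and 2, 0 and 2 in muscle. The 3 genes higher in muscle were SYPL2, SYPL1 and SYNGR2 in every species. SYPL2, a synaptophysin-like protein of the muscle triad, was 1.01 ± 0.20 in cattle brain and 248.2 ± 78.9 in cattle muscle (SD, n = 3; log2 difference -7.88), and -7.96 and -7.17 in sheep and goat. SYPL1 (-1.97, -2.38 and -1.75) and SYNGR2 (-3.95, -3.50 and -3.01) belong to the synaptophysin and synaptogyrin families of vesicle proteins found in many cell types.

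The housekeeping SNAREs, which serve the Golgi, endosomes and plasma membrane of all cells, were mostly not called: 5, 3 and 7 were higher in brain and 3, 2 and 2 higher in muscle, of 22, 21 and 21 tested, with medians of 0.14, 0.40 and 0.63. The goat share higher in brain is close to the 31.9% of all genes, and the cattle and sheep shares are under the 34.3% and 28.3% there. SNAP23, the broadly expressed counterpart of SNAP25, was 4.03 ± 0.397 CPM per kilobase in cattle brain and 42.5 ± 10.2 in cattle muscle (SD, n = 3), and its log2 difference was -3.33, -3.48 and -3.16 in cattle, sheep and goat. SNAP25 and SNAP23 thus changed places between the tissues. VAMP5, a VAMP first described in muscle, was also higher in muscle (-2.25, -2.56 and -4.56). STX6 (2.51, 1.89 and 2.73) and VAMP4 (2.28, 1.84 and 1.598), which act between endosomes and the Golgi, were higher in brain. In vesicle recycling 11 of 20, 10 of 19 and 12 of 19 genes were higher in brain, led by PACSIN1 (10.79, 10.23 and 8.71) and DNAJC6 (10.15, 9.38 and 9.24), the neuronal syndapin and the auxilin that strips clathrin. BIN1, the amphiphysin of T-tubules (-3.35, -2.83 and -2.53), and PACSIN3, the muscle syndapin (-5.11, -4.10 and -5.00), were higher in muscle.

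**Figure D5:**
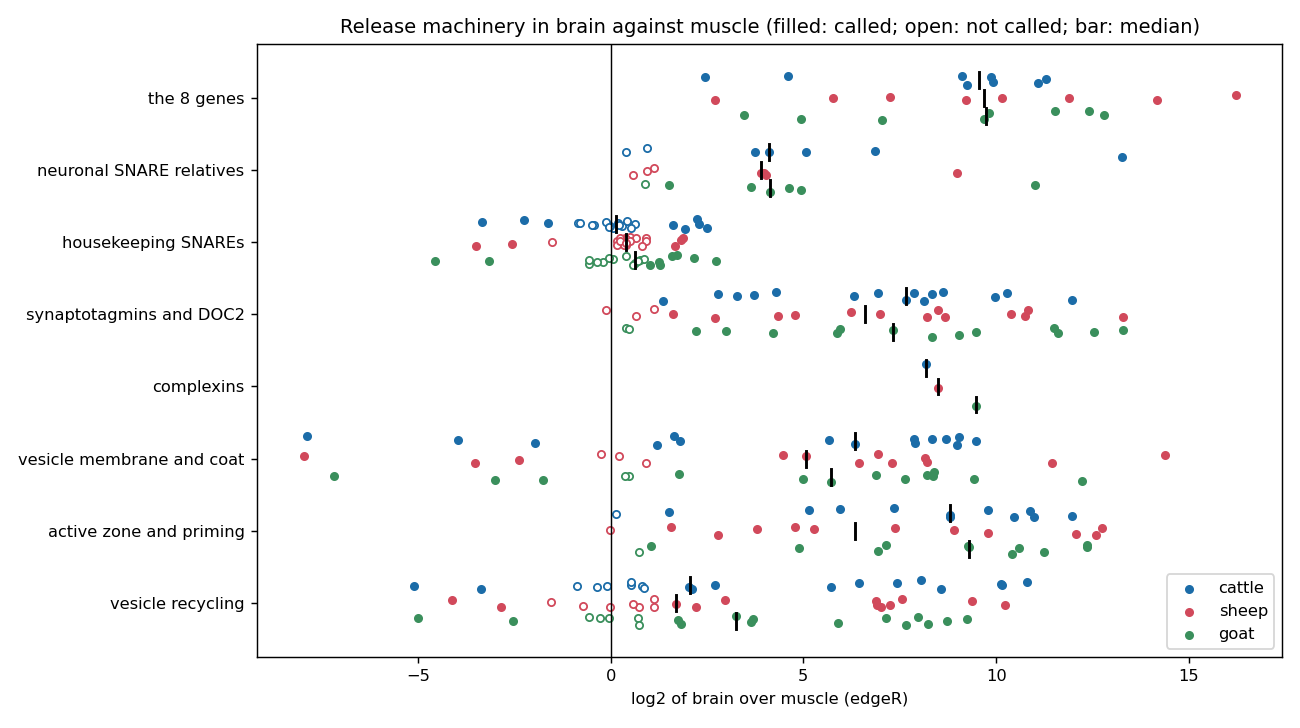
Log2 of brain over muscle for the genes of the release machinery by list, with 1 point per gene and species; filled points are called, open points are not, and bars mark the medians. The 8 genes have medians of 9.54, 9.69 and 9.75 in cattle, sheep and goat, the housekeeping SNAREs stay near 0, and the points far to the left include SYPL2.

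Between species in brain, few genes of the rest of the machinery were called. Of 91 genes 3 were higher and 9 lower in cattle than in sheep, 3 and 5 in cattle than in goat, and 4 and 3 in sheep than in goat. Over all genes the shares called were 19.5%, 19.6% and 13.5% in the same order. RAB3A, the vesicle GTPase, was 393.6 ± 25.6 CPM per kilobase in cattle brain, 332.4 ± 122 in sheep and 90.5 ± 20.4 in goat (SD, n = 3), and was called higher in cattle than in goat (2.15) and in sheep than in goat (1.92). Its goat model holds 5875 exonic bases, against 1581 in cattle and 1466 in sheep, and in CPM without length RAB3A was 622.2 ± 40.4 in cattle, 487.2 ± 179 in sheep and 531.8 ± 120 in goat (SD, n = 3 each), with fitted differences of -0.04 and 0.01 that were not called. CPLX3 was lower in cattle (2.18 ± 0.861) than in goat (28.5 ± 28.2; log2 difference -3.69), in the direction of CPLX1 per length. Its models hold 1960 exonic bases in cattle and 477 in goat. Without length CPLX3 stayed lower in cattle than in goat (-1.96, not called) and CPLX1 turned to 1.21, so their signs were then opposite. CLTB, a clathrin light chain, was 46.9 ± 4.26 in cattle, 199.3 ± 148 in sheep and 39.3 ± 1.14 in goat, and the highest sheep library was C, at 369.9. Its models hold 3294, 1092 and 4227 exonic bases in the same order, and without length the fitted difference was -0.91 in cattle over sheep and 0.53 in sheep over goat, neither called. AAK1, a kinase of the clathrin adaptor, was higher in cattle (29.3 ± 2.59) than in sheep (7.005 ± 4.802), the lowest sheep value, 1.46, also being in C. The remaining genes that met the rule for naming were STX2 (2.16 in cattle over goat), SYTL1 (-2.92 in cattle over sheep) and STX18 (-1.55 in sheep over goat), SNAREs of epithelia and of the endoplasmic reticulum and, in SYTL1, an effector of vesicle docking. Without the length offset only SYTL1 and STX18 kept their calls (-3.22 and -1.02), and AAK1 (1.39), CPLX3 (-1.96) and STX2 (1.02) lost theirs. SYTL1 was low, with 34 counts over the cattle brain libraries (mean 0.119 CPM per kilobase). In sheep brain C it lay 1.48 above sheep brain A and B on the log2 scale.

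The genes whose brain pattern was most like the mean of the 8 members were ranked by Pearson's r over the 9 brain libraries, after subtracting each species' mean from log2 levels, among 7940 genes. Among the first 5 were NRG3 (0.992), TSPAN3 (0.989), GNAO1 (0.987) and PLCH1 (0.986). Over the 8 libraries without sheep brain C their values were 0.977, 0.951, 0.946 and 0.941, and the first 5 became BUD23, CNTNAP1, CELSR2, PSMD11 and CRMP1, with 0 shared. BUD23, the neighbour of STX1A on the chromosome, had an r of -0.71 over 9 libraries and 0.995 over 8. All points share libraries and depth, and the ranking is a description. Among the members themselves SV2A followed the mean closest over 9 libraries (0.988, and 0.946 over 8). Each member is itself part of that mean, which raises its r. SYN1 ran against it over 9 libraries (-0.61) and with it over 8 (0.962), and STX1A did the same (-0.44 and 0.784).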

How the data were processed

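The deposited values are raw read counts per gene and library, made by the authors with Trimmomatic 0.39, STAR 2.7.6 and featureCounts per the submitters' processing notes, which name ARS-UCD1.2 as the only build. The sources used here do not give the sheep and goat builds, the strand setting or how reads with several placements were handled. Cattle genes were named by the overlap of their spans with a RefSeq table on ARS-UCD2.0 (16803 named), and coordinates are those of the count files. Of the 14746 genes matched in 3 species, 10179 shared runs of exon lengths and 4567 were found between matched neighbours.

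The main test was edgeR's robust quasi-likelihood fit (version 4.0.16, R 4.3.3) after filterByExpr and TMM scaling, with relative exonic length as an offset between species. Genes with an adjusted p (Benjamini-Hochberg) below 0.05 and an absolute log2 difference of at least 1 were called. P-values were adjusted over all genes of a fit. The cattle brain over muscle fit and the brain fit between species were tested on simulated data with the same dispersion for all genes. The simulation held no outlying library, and only well-counted genes were changed. The muscle fits between species and the interaction were not simulated, so calls at trace counts were not put to this check. Alternatives were RLE scaling, library totals, no filter, DESeq2 1.42.0, the replicate letter as a block, first-pass matches, no length offset and leaving out each library. Intervals are exact at 95% and cover counting error only, as do floors of 3 counts.

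The members and lists were chosen with earlier results of these data known. Genes of the lists are named by rule: per list the 2 of largest mean difference among those higher in brain in all 3 species, each gene higher in muscle in at least 2 species, and per species pair the 3 of largest difference in brain whose libraries do not overlap. UNC13A, RIMS2, NAPA, ELAVL4 and SNCB were named after their values were seen. Some genes that met these rules are not reported here. No sequences are printed.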

Additional observations from a re-analysis of the deposited data

Results flagged for a closer look

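Of the 8 genes, 3 had a gap between brain and muscle that differed between species by a test of the difference itself (the edgeR interaction). Over all genes 19.2% were called for cattle and sheep, beside 3 of the 8. For cattle and goat 13.1% were called and for sheep and goat 7.51%, beside 1 of the 8 each. The count of 1 for cattle and goat is close to its share. SV2A differed by 2.84 on the log2 scale between cattle and goat and by 2.52 between cattle and sheep, wider in cattle both times, with 47 muscle counts in cattle, 112 in sheep and 210 in goat. SNAP25 differed by -5.12 between cattle and sheep and by 4.92 between sheep and goat, with 73 muscle counts in cattle, 1 in sheep and 57 in goat. STX1A differed by -2.92 between cattle and sheep, with 49 muscle counts in cattle and 4 in sheep. The sheep muscle values rest on 1 and 4 counts, so the sizes for SNAP25 and STX1A are loose.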

How the results depend on the processing

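All 8 members were called higher in brain in each species under every alternative run, and the 5 interaction results above kept their sign. The counts of called members that moved by over 1.5 times were these. On library totals alone 3 members were called in brain for cattle against sheep, 2 for cattle against goat and 1 for sheep against goat, and in muscle 3 for cattle against sheep and 1 for sheep against goat. Without the length offset the brain counts were 3, 2 and 1 in the same order, and 3 members were called between cattle and goat muscle. With first-pass matches only, which leave 5 members, 0 were called in brain for either cattle pair. CPLX1, the only member called there in the main fit, is left out of that fit, so its call was not put to this check. Between sheep and goat muscle 1 member was called with RLE scaling, with no filter, with DESeq2 and with the replicate block. DESeq2 called 2 members in the interaction of cattle and goat. Leaving out single libraries gave 0 to 1 members in brain for cattle against sheep and for cattle against goat, 3 to 5, 1 to 2 and 1 to 2 in muscle for cattle against sheep, cattle against goat and sheep against goat, and 1 to 2 in the interaction of cattle and goat. Without the length offset VAMP2 turned to 1.47 and 1.55 and CPLX1 to 1.11 and 1.21 in cattle over sheep and goat brain. Both have longer models in cattle, and the scaling was also computed anew in that fit. The part of each was not tested. The cause of the other changes was not tested.

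By the rule that every same-letter pair correlate over 0.1, the letters did not pair the tissues: 3 of 9 did so (from -0.198 to 0.204). In sheep the same-letter values were 0.122, 0.108 and 0.0878 and those of other letters were all below 0. These are correlations of deviations from the group mean, which cancel over the libraries of a group. Values below 0 for other letters are thus largely set by the same-letter values and add no support of their own. Each sheep library correlated best with its own letter, a hint from the data and not the design. The letter as a block changed 1 of 93 member calls, SYT1 between sheep and goat muscle.

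On library totals the median gene lay at -0.82 in cattle over sheep brain and -0.64 in cattle over goat brain, against -0.04 and 0.02 with TMM, and the share of calls that were higher fell to 6.28% and 14.2%, against 31.8% and 46.8%. For brain over muscle that share was 75.9%, 83.4% and 77.8% on totals in cattle, sheep and goat, against 58.2%, 59.4% and 58.6% with TMM. In muscle it was 17.3% and 20.7% for cattle over sheep and goat, against 46.7% and 43.0%. For the interaction it was 31.1% for cattle and sheep and 78.9% for sheep and goat, against 46.5% and 64.1%. Over all genes the number called also moved. In brain it was 4954 on totals, 1608 with first-pass matches and 1087 to 2719 without single libraries for cattle and sheep, against 2482. For cattle and goat it was 3858, 1470 and 1377 to 3712, against 2495. For sheep and goat it was 1111 with first-pass matches and 845 to 2156 without single libraries, against 1718. In the interaction it was 1839 with DESeq2, 599 with first-pass matches and 489 to 1441 without single libraries for sheep and goat, against 986, and 1155 to 2882 without single libraries for cattle and goat, against 1726. In muscle it was 2125 with first-pass matches for sheep and goat, against 3264. First-pass matching tests fewer genes. Depth limits the muscle traces, where 7 of the 24 gene and species pairs had fewer than 20 counts.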
